A study of Homo sapiens with 2 samples.

Results

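The genes described here encode 7 secreted ligands of the bone morphogenetic protein (BMP), fibroblast growth factor (FGF) and hedgehog families, namely Bmp2, Bmp4, Bmp7, Fgf1, Fgf2, Fgf10 and Shh. They were taken by symbol from a quantitative PCR array of 84 genes of adipogenesis and lipid metabolism. The array was run on HepG2 cells, a human hepatoma line, left untreated (control) or kept for 72 h with MOES, a water extract of seeds of Moringa oleifera that holds plant miRNAs. Each group had 1 sample, so no value has a replicate error and no test was possible. The title of the treated sample gives a dose of 5 mg/mL and the protocol in the labels gives 2.5 mg/mL.

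BMPs are ligands of the TGF-beta superfamily that bind serine and threonine kinase receptors and signal through SMAD proteins. BMP2 and BMP4 commit mesenchymal precursors to the fat lineage, and BMP7 favours brown adipocytes. FGFs bind receptor tyrosine kinases and act through the MAPK cascade. FGF1 is a heparin-binding factor of adult fat and liver metabolism, FGF2 a broad mitogen, and FGF10 a mesenchymal factor needed for fat tissue to form. Sonic hedgehog releases the receptor Smoothened from inhibition by Patched and holds precursors back from fat differentiation. In adult liver, hedgehog ligands are known from repair and from tumours.

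The values are threshold cycles (Ct), the PCR cycle where the fluorescence of a well passes a threshold, so that more template gives a lower Ct. The highest Ct in the tables is 35, which was read as a ceiling. Of the 84 genes, 6 (7.14%) were at 35 in both samples and a further 19 (22.6%) in the MOES sample alone. The 3 positive PCR control wells were at 35 in both samples, so a failed PCR and a low level cannot be told apart at the ceiling. All 59 MOES gene values under 35 were whole numbers, against 0 of 78 in the control. Other wells of the MOES sample kept decimals, with a Ct of 23.82 for B2m, 25.66 for Gusb, 25.3 for Hsp90ab1 and 29.56 for MGDC. Gene and reference wells of that sample were thus recorded differently, for a reason the sources used here do not give. The symbols are written in the mouse style and the genomic DNA control well is named MGDC, the abbreviation used for mouse arrays, whereas the labels name the human array. In untreated cells, Actb, a cytoskeletal gene usually abundant in cultured cells, had a Ct of 34.05 and Agt, a product of hepatocytes, had 33.91. Whether each symbol names the right well was not tested.

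Shh stood far above the other ligands in level. Shh crossed the threshold at a Ct of 25.18 in untreated cells and of 28 after MOES. It held rank 6 of the 84 genes, counted from the earliest well, in both samples, tied after MOES with the other genes at 28. Relative to the reference genes behind the deposited values, which are B2m, Gusb and Hsp90ab1, the Shh level was 0.833 without and 0.119 with MOES.

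The FGF ligands spread over several cycles in the control. Fgf2 had a Ct of 29.93 without MOES and 32 with it. Fgf1 had 31.7 without MOES and again 32 with it. Fgf10 had 34.34 in untreated cells and was at the ceiling after MOES. In the control the earliest of the 3 was therefore Fgf2, which preceded Fgf10 by 4.41 cycles, and Fgf10 was the latest gene on the array to cross the threshold before the ceiling (rank 78 of 84).

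Of the BMP ligands, only Bmp4 was recorded under 35. Its Ct was 30.83 in untreated cells and 32 after MOES. Bmp2 and Bmp7 were at 35 in both samples, which makes up 2 of the 6 genes of the array without any value under the ceiling. The other 4 were Axin1, Dkk1, E2f1 and Wnt5b. For Bmp2 and Bmp7 the level relative to the reference genes was at most 0.000922 in the control, provided that the PCR in those wells worked.

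**Figure D1:**
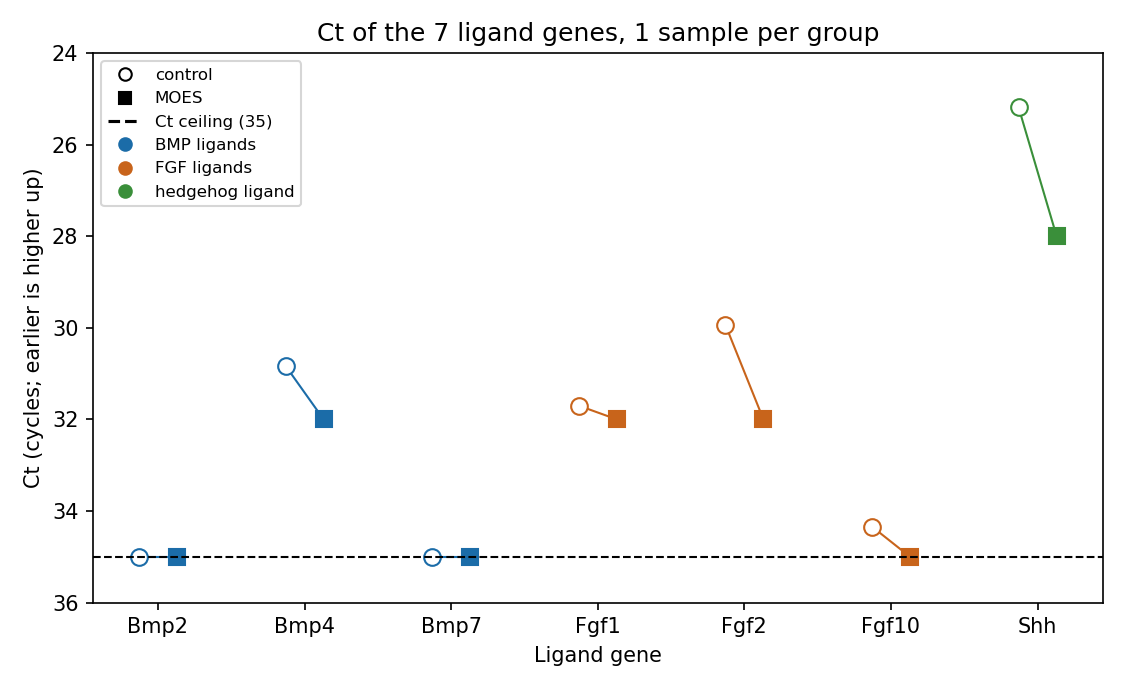
Ct of each ligand gene (y axis, in cycles, inverted so that more template is higher up) in the control sample (open circles) and the MOES sample (filled squares), 1 sample per group, coloured by family, with the ceiling of 35 as a dashed line. Shh lies above the other 6 genes in both samples, Bmp4, Fgf1 and Fgf2 share a MOES Ct of 32, and Bmp2 and Bmp7 lie on the ceiling.

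Put in order, the control levels were Shh, Fgf2, Bmp4, Fgf1 and Fgf10, followed by Bmp2 and Bmp7 at the ceiling. Such an order between genes assumes that the assays amplify equally well and give products of similar length, which the sources used here do not state. The genomic DNA control well, MGDC, had a Ct of 29.9 in untreated cells, before all ligands but Shh. The part of genomic DNA in these levels was not tested. The only measure of spread is the 3 reverse transcription control wells of the control sample, which had a Ct of 31.41, 32.01 and 32.1 and an SD of 0.375 cycles. Between single wells the SD of a difference is then 0.530 cycles, and 2 of these are 1.06 cycles. It describes late wells of a single plate and no biological variation. After MOES all 3 of these wells were at the ceiling, so they give no spread there. Shh preceded Fgf2 by 4.75 cycles, a 26.9-fold higher level, and Fgf1 preceded Fgf10 by 2.64 cycles, both more than 2 SD. The gaps between Fgf2 and Bmp4, 0.90 cycles, and between Bmp4 and Fgf1, 0.87 cycles, were smaller than 2 SD. After MOES Shh preceded these 3 genes, tied at 32, by 4 cycles.

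As families, hedgehog came first, with a gap of 6.52 cycles to the FGF median and of at least 9.82 cycles to the BMP median. The BMP median was at the ceiling, at least 3.30 cycles after the FGF median. That gap rests on Bmp2 and Bmp7. With the members at 35 in either sample left out, Bmp4 stood 0.015 cycles after the median of Fgf1 and Fgf2, a gap smaller than the SD between single wells. Fgf10, left out there for its MOES well, came 3.51 cycles after Bmp4 in untreated cells.

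The upstream sequences of the 3 genes that passed the lower fold limit of the study (below) are shown so that their base composition can be set beside their level. They are the 250 bases before a transcription start in the RefSeq table of GRCh38.p14, read 5′ to 3′ on the strand of the gene. Capitals mark GGGCGG (the GC box) and CCAAT, each found on either strand, whose letters do not overlap here. SHH lies on chromosome 7, from 155799980 to 155812463, FGF2 on chromosome 4, from 122826682 to 122898236, and BMP4 on chromosome 14, from 53949736 to 53956891. The windows are chr7:155812464-155812713 on the minus strand, chr4:122826581-122826830 on the plus strand and, for the first of 3 listed BMP4 starts, chr14:53955051-53955300 on the minus strand.
SHH: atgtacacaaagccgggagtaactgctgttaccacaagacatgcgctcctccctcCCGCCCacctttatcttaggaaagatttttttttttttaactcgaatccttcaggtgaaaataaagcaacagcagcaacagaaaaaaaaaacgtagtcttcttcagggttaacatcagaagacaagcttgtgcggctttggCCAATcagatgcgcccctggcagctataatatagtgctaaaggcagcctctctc
FGF2: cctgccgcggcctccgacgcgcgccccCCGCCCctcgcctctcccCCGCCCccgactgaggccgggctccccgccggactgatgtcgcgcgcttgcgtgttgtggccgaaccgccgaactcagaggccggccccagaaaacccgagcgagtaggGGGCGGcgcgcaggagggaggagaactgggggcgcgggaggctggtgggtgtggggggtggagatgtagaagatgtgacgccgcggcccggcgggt
BMP4: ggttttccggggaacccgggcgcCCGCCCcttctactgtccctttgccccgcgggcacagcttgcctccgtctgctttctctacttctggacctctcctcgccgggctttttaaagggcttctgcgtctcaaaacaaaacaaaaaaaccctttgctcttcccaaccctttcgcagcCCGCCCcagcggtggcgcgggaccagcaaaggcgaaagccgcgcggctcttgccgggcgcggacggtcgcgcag

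The SHH window had a GC content of 44.4%, the FGF2 window 75.2% and this BMP4 window 63.6%, around a median of 58.0% over 35114 windows of the same length. The GC box occurred 1 time in SHH, 3 times in FGF2 and 2 times in this BMP4 window, and 42.6% of all windows hold it. The other BMP4 starts, like this one inside the locus given above, had windows with a GC content of 56.0% and 70.4% and with 0 and 3 GC boxes. The FGF2 window also reaches into its locus, which starts at 122826682 while the window ends at 122826830. CCAAT occurred 1 time in SHH and in neither of the others, and 32% of all windows hold it. TATAAA, held by 10.7% of all windows, was in none of the 10 windows of the 5 ligand genes matched, which besides these were FGF1, with 4 starts, and FGF10. The 4 FGF1 windows had a GC content from 44.8% to 60.8%, and that of FGF10 had 65.6%. BMP2 and BMP7 are named only.

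Comparing treated with control cells, no ligand gene was recorded as higher after MOES and 3 of the 7 were lower by more than the limit of the study. The limits in its methods are a fold change above 1.5 and below 0.5. Shh was 7.01-fold lower in the MOES sample, a fold change of 0.143 and a log2 fold change of -2.81. Fgf2 was 4.17-fold lower, with a fold change of 0.240 and a log2 fold change of -2.06. Bmp4 was 2.23-fold lower, with a fold change of 0.448 and a log2 fold change of -1.16. The reverse transcription control wells are meant to follow a synthetic RNA into cDNA. The methods of the study name a cDNA kit of another maker than the array and do not state whether that RNA was added. These wells were also later after MOES. All 3 were at 35 there, with log2 fold changes of at most -2.89 to -3.58 on the same reference, which is at least the size of the change of Shh, and their part in the changes of the ligands was not tested. Each of the 3 ligand changes passed 2 SD of the spread between single wells, Bmp4 by the smallest margin.

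Fgf1 had a fold change of 0.818, between the limits, and its log2 fold change of -0.29 was smaller than 1 SD. Fgf10 was at least 1.57-fold lower, since its MOES well was at the ceiling, and a bound of 0.637 on the fold change does not tell on which side of 0.5 it lies. For Bmp2 and Bmp7 nothing is known of any change. The share of ligand genes below 0.5, 42.9%, compares with 67.9% of all 84 genes, and the share above 1.5 with 8.33% of all genes. Among genes with a control Ct under 35, 3 of 5 ligands (60.0%) and 73.1% of all 78 genes were below 0.5, so the ligands were not called more often than the array as a whole.

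**Figure D2:**
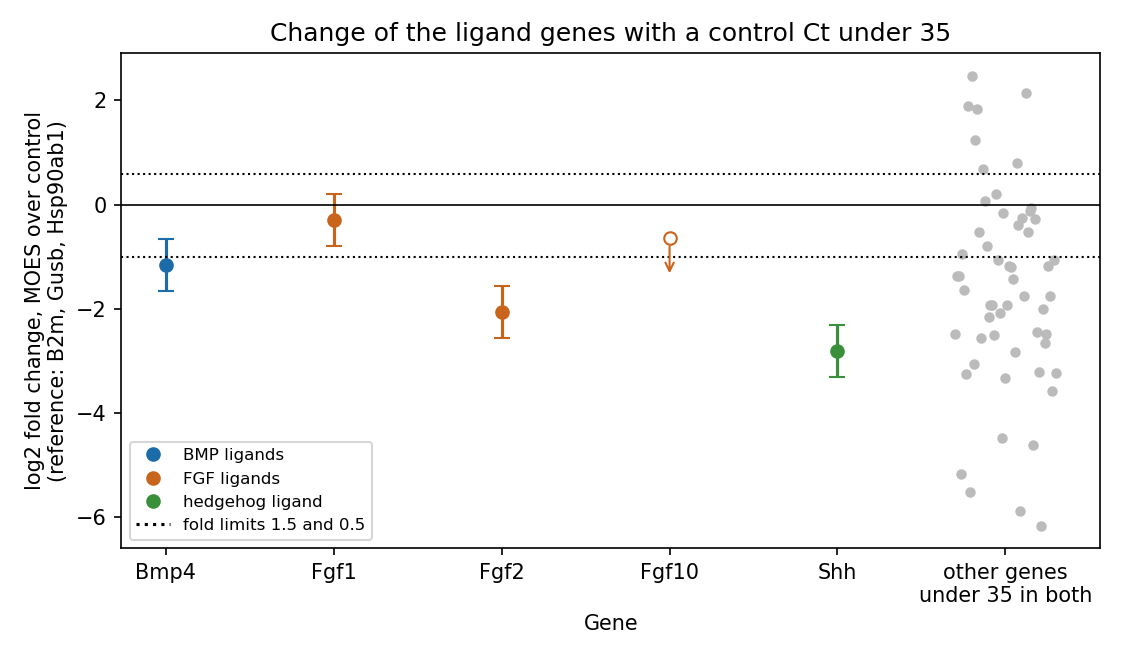
Log2 fold change of MOES over control (y axis) for the 5 ligand genes with a control Ct under 35, relative to B2m, Gusb and Hsp90ab1, beside the other genes under 35 in both samples (grey). Bars are the range from moving the MOES Ct by 0.5 cycle either way and no replicate error, the open circle with an arrow is an upper bound, and dotted lines are the fold limits. The bars of Shh and Fgf2 lie below the lower limit, that of Bmp4 crosses it and that of Fgf1 crosses 0.

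The MOES gene wells, unlike the reference wells, were recorded in whole cycles. Each change was therefore also computed with these gene wells 0.5 cycle earlier or later, a range chosen after seeing the data. The fold change of Shh then ran from 0.101 to 0.202 and that of Fgf2 from 0.170 to 0.339, all below 0.5. The fold change of Bmp4 ran from 0.316 to 0.633, which crosses the limit, and that of Fgf1 from 0.578 to 1.16. With the wells 0.5 cycle earlier 2 ligand genes, Fgf2 and Shh, were below 0.5.

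Bmp4, Fgf1 and Fgf2 had the same MOES Ct of 32. The recorded differences in change between them, including that between Fgf1 and Fgf2, are therefore the differences of their control wells alone. A MOES Ct of 32 was common on the array, with 21 of the 84 genes (25.0%), against 3 of the 7 ligands (42.9%). Among genes under 35 in both samples it was 35.6% of 59 genes, against 3 of the 4 ligands.

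**Figure D3:**
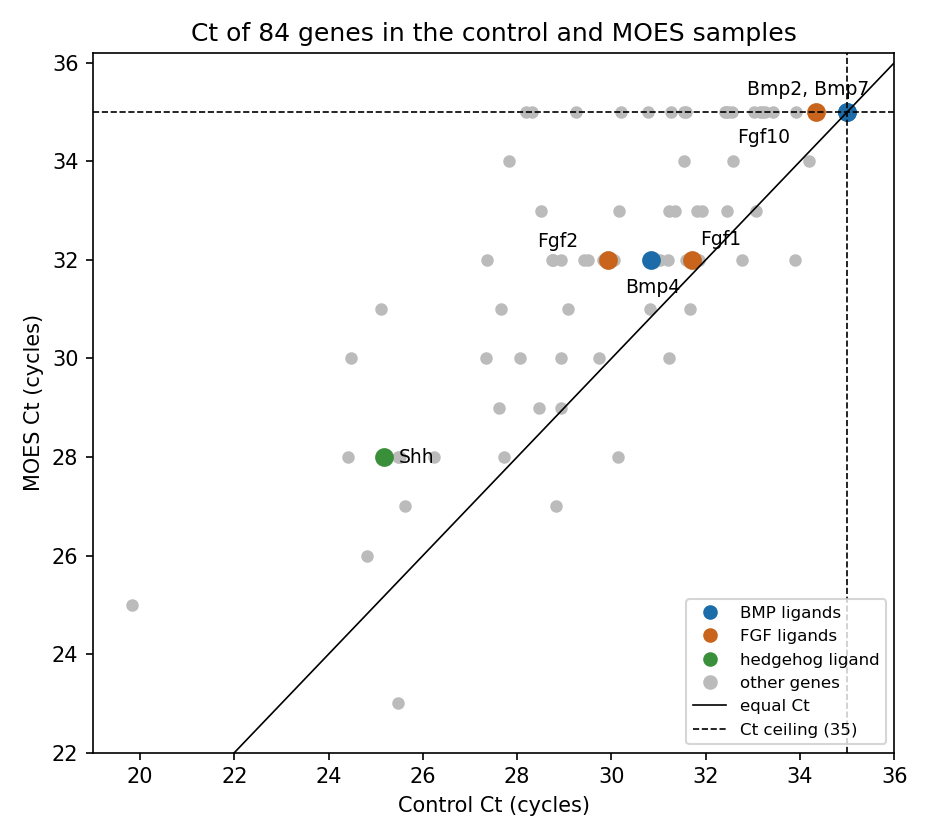
Control Ct (x axis, cycles) against MOES Ct (y axis, cycles) of the 84 genes, 1 point per gene and 1 sample per axis, with the ligand genes coloured by family, equal Ct as a solid line and the ceiling of 35 as dashed lines. Bmp4, Fgf1 and Fgf2 sit in the row of genes at a MOES Ct of 32, Shh lies 2.82 cycles above the line of equal Ct, and Bmp2 and Bmp7 coincide at 35.

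Differences in change between ligands do not depend on the reference genes, which cancel. Between the 4 ligands under 35 in both samples there are 6 pairs, and the SD of a difference between 2 such changes is 0.750 on the log2 scale. In 3 pairs the difference exceeded 2 SD, a limit that leaves out the whole-cycle recording of the MOES gene wells. A shift of all these wells together cancels in a pair, so the effect of that recording on the 3 pairs was not tested. The fold change of Shh was 5.74-fold lower than that of Fgf1 and 3.14-fold lower than that of Bmp4, and the fold change of Fgf2 was 3.41-fold lower than that of Fgf1. Shh and Fgf2 differed by 1.68-fold, Bmp4 and Fgf2 by 1.87-fold and Bmp4 and Fgf1 by 1.83-fold, each within 2 SD. Bmp4 lay between Fgf1 and Fgf2, the only pair inside a family, so that pair is further apart by construction. With equal MOES Ct this is the order of their control wells and no comparison of families.

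The families can be set side by side in the same way. The single hedgehog gene had a log2 fold change of -2.81. The FGF median was -0.65, which is the bound of Fgf10, and -1.18 over Fgf1 and Fgf2 alone. The BMP median was 0.00 with Bmp2 and Bmp7 entered at no change, and Bmp4 alone had -1.16. BMP minus FGF was therefore 0.65 with all members, which is the bound of Fgf10 against a BMP median entered at no change. Without those at the ceiling it was 0.015. That is the gap of the control wells, since Bmp4, Fgf1 and Fgf2 had the same MOES Ct. Neither value can tell whether these families differed in change. FGF minus Shh was at most 2.16 with all members, since Fgf10 is a bound, and 1.635 over Fgf1 and Fgf2 alone. BMP minus Shh was 2.81 with all members, which only restates the Shh change because Bmp2 and Bmp7 were entered at no change. With Bmp4 alone BMP minus Shh was 1.65. The median of the 7 ligands was -0.65, and -1.61 over the 4 under 35 in both samples. For all 84 genes the median was -1.78 and for the 59 under 35 in both samples -1.65.

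The direction of the single genes rests on the reference. B2m, Gusb and Hsp90ab1 differed between the samples by at most 0.02 cycles. That is far closer than the SD of 0.530 cycles between single wells, and the reason was not tested. All fold changes on this reference depend on that agreement. Gapdh, by contrast, went from a Ct of 28.46 to 35 and Actb from 34.05 to 35. Another reference shifts the log2 fold changes of all genes together, by at least 0.94 with Actb, at least 1.49 with the mean of all 5 reference genes, 1.5 with the median gene of the array and at least 6.53 with Gapdh. Shh and Fgf2 were below 0.5 against B2m, Gusb or Hsp90ab1 alone. Against the median gene Shh was also below 0.5, with a log2 fold change of -1.31, while Fgf2 was at -0.56 and Bmp4 at 0.34, both between the limits, and Fgf1 was above 1.5 at 1.21. Against Actb or the mean of all 5 genes each value is a lower limit, since Actb or Gapdh was at the ceiling. Against Actb this limit was -1.87 for Shh, -1.12 for Fgf2 and -0.22 for Bmp4, so none of them is known to lie below 0.5. With Gapdh alone all 4 ligands under 35 in both samples were above 1.5.

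**Figure D4:**
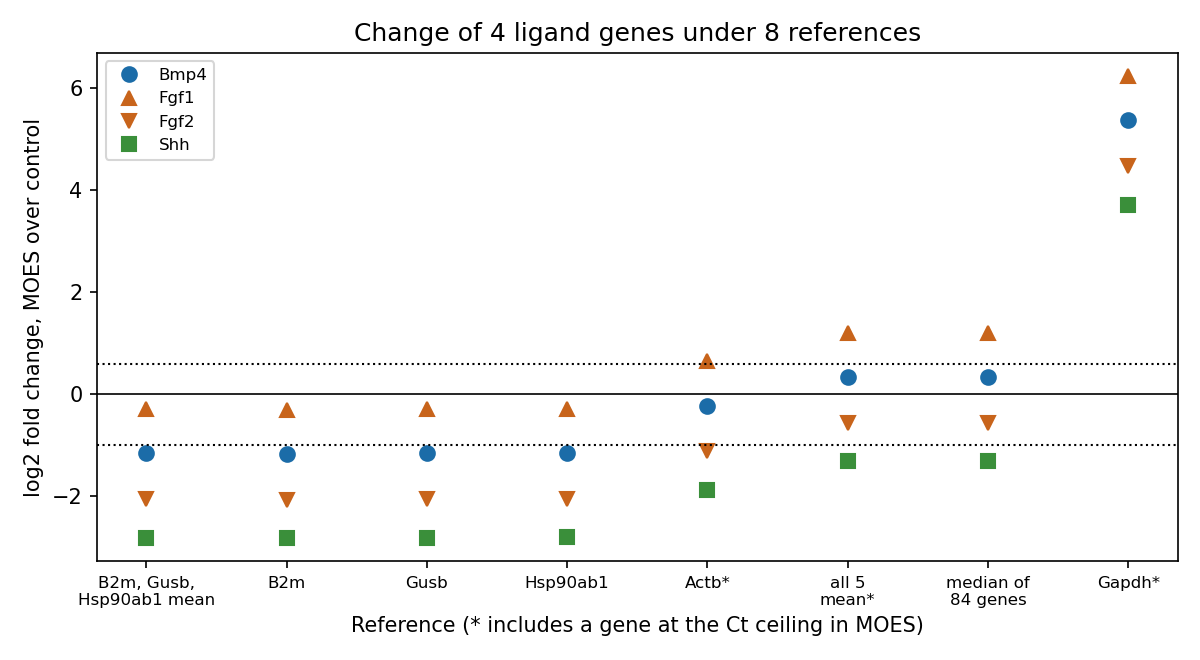
Log2 fold change of MOES over control (y axis) of Bmp4, Fgf1, Fgf2 and Shh under 8 references (x axis), 1 sample per group, with the fold limits dotted. An asterisk marks a reference that includes a gene at the ceiling in MOES, where the shift is a minimum. The order Fgf1, Bmp4, Fgf2, Shh is the same under each reference by construction, and the position against 0 moves.

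The genes most like each ligand in both Ct values were sought among the 55 other genes under 35 in both samples, by distance in the pair of Ct values. Fgf2 was nearest to Fabp4, a fatty acid carrier of adipocytes, at 0.03 cycles, and Bmp4 to Ccnd1, cyclin D1, at 0.04 cycles. Fgf1 was nearest to Dlk1, the preadipocyte factor that restrains differentiation, at 0.11 cycles. Shh was nearest to Rb1, the retinoblastoma cell cycle regulator, at 0.30 cycles. Each nearest gene had the same MOES Ct as its ligand, so these distances are gaps of the control wells alone. With only 2 samples this likeness is a description of their Ct.

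Receptors, SMADs and GLI factors of these pathways were not analysed here, so 3 lists of genes linked to each family and a list of other secreted ligands were taken from textbook knowledge. Among 6 genes linked to growth factor kinase signalling, 4 were below 0.5 and 2 above 1.5. Egr2 and Jun, immediate early factors that growth factors induce, had bounds of at least 112-fold lower and at least 27.7-fold lower, both with the MOES well at 35. Mapk14, the p38 kinase, had a fold change of 0.179 and Ccnd1 of 0.435. Creb1, a factor that growth factor kinases phosphorylate, had a fold change of 3.56 and Src, a tyrosine kinase, of 1.60. The list thus held genes on both sides, with a median of -1.84 beside -1.78 for all genes. Over its 4 genes under 35 in both samples the median was -0.26, beside -1.65 for the array.

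In the list of 6 genes linked to the brown fat programme that BMP7 starts, 5 were below 0.5 and 1 above 1.5, where 67.9% of the array was below 0.5. The median was -2.49 over the list and -2.48 over the 5 genes under 35 in both samples, beside -1.78 and -1.65 for the array. Ppargc1a, the coactivator of mitochondrial genes, was 45.9-fold lower and Ucp1, the uncoupling protein, 5.62-fold lower. Ppargc1b, a related coactivator, was at least 10.9-fold lower with its MOES well at 35. Prdm16, a brown fat determinant, had a fold change of 0.444, while Dio2, which activates thyroid hormone, had 2.36. Mapk14, given above among the growth factor kinase genes, was counted in this list too. Bmp7 itself was at 35 in both samples.

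Of 4 genes linked to hedgehog signalling, 3 were below 0.5 and 0 above 1.5, again beside 67.9% of the array below 0.5. The median was -1.86 over the list and -1.20 over the 3 genes under 35 in both samples. Gata3, a brake on fat differentiation, was 7.11-fold lower, and Hes1, a transcriptional repressor, was at least 5.74-fold lower. Gata2, the related brake, had a fold change of 0.889, between the limits. Ccnd1, given above, was the fourth.

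Among the 9 other secreted ligands, 6 were below 0.5, 1 was above 1.5, 1 lay between and 1, Wnt5b, was at 35 in both samples, with a median of -1.73 and of -1.38 over the 5 under 35 in both. Wnt3a, a canonical WNT ligand, was 72.0-fold lower and Adipoq, adiponectin, 24.6-fold lower. Lep, leptin, had a fold change of 3.73, and Wnt5a, a noncanonical WNT ligand, of 0.914. Wnt3a thus had a lower fold change than each of the 4 BMP, FGF and hedgehog ligands measured in both samples.

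**Figure D5:**
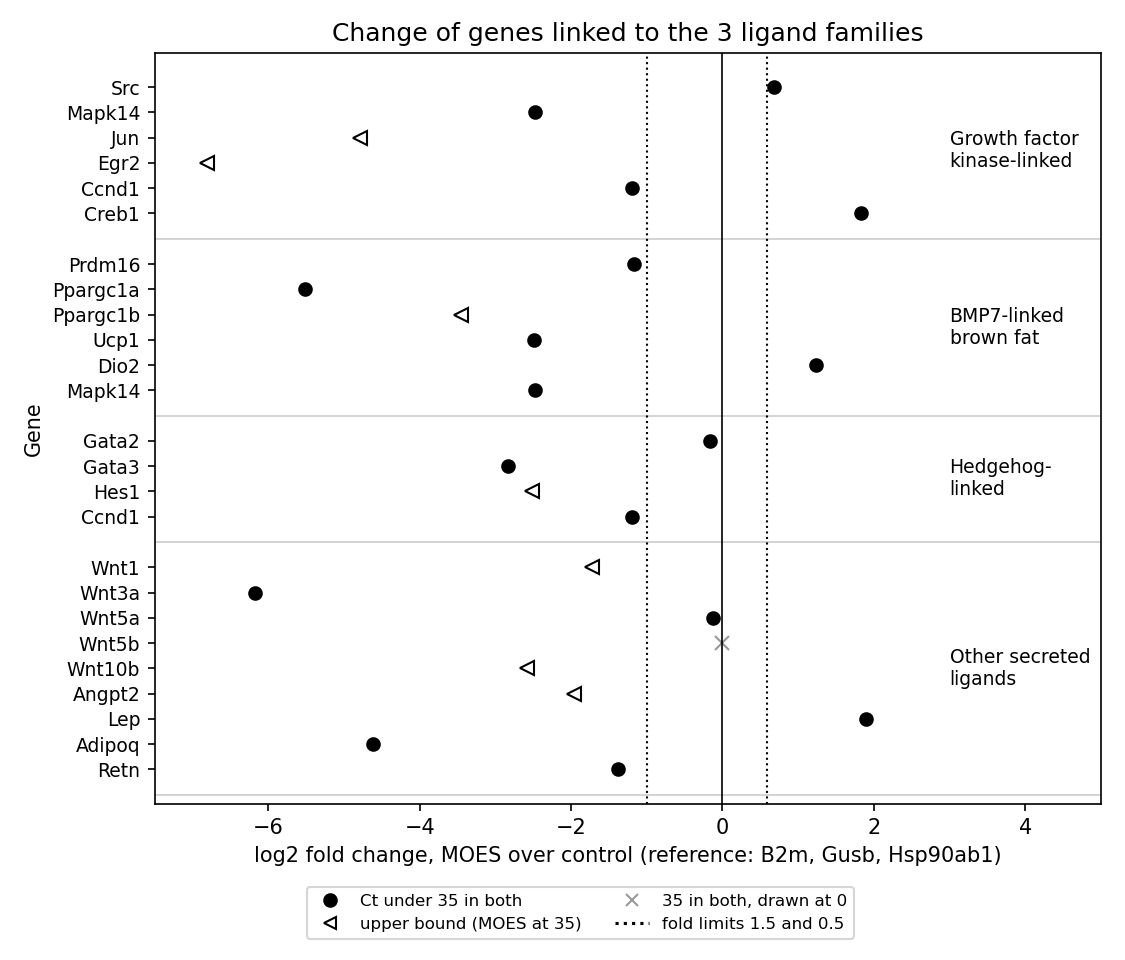
Log2 fold change of MOES over control (x axis), relative to B2m, Gusb and Hsp90ab1, for the genes of 4 lists (y axis), 1 sample per group. Filled circles are genes under 35 in both samples, open triangles are upper bounds, the cross is a gene at 35 in both samples and dotted lines are the fold limits. Each list holds genes on the left of the lower limit, and Creb1, Src, Dio2 and Lep lie on the right of the upper limit.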

How the data were processed

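Per the labels, total RNA of HepG2 cells was extracted with TRIzol, turned into cDNA and measured with SYBR Green on a PCR array of 96 wells, with the web software of the array's maker. The authors deposited the Ct per well, called an average in the header, and the number of averaged wells is not given in the sources used here. The columns of standard deviations hold no numbers. Further deposited tables give the delta Ct, which is a log2 value of opposite sign, and its ratio form, the level over that of the reference genes. The deposited table of the authors' own fold changes was not used. Columns were assigned to samples by name.

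Over the 31 subsets of the 5 reference genes, the mean of B2m, Gusb and Hsp90ab1 gave back the deposited delta Ct of the 84 genes within 0.00569 cycles. The log2 fold change was the delta Ct of the control minus that of the MOES sample. A MOES well at 35 gave an upper bound, and genes at 35 in both samples entered medians at no change. With 1 sample per group no test was made. The members and lists were chosen with earlier results of these data known. The genes named are the members, control wells, the genes of 4 lists, the nearest gene to each member and the genes at 35 in both samples, and Agt and Pparg. Pparg and those at 35 in both were picked from their values. The alternatives were 7 references, a ceiling of 32, leaving out genes at 35, the deposited delta Ct, 3 other pairs of limits and, added after seeing the data, shifts of 0.5 cycle. Python 3.11.15, numpy 2.4.6 and matplotlib 3.10.9 were used, and the calculation was tested on simulated data.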

Additional observations from a re-analysis of the deposited data

Results flagged for a closer look

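The MGDC well, which checks for genomic DNA and enters no comparison of the ligands, gave more signal after MOES than in untreated cells, with a log2 fold change of 0.35 relative to the reference genes. Its Ct was 29.56 after MOES and 29.9 without it, a gap within the SD of 0.530 cycles between single wells. In both samples this Ct was below those of Bmp4, Fgf1, Fgf2 and Fgf10, by only 0.03 cycles for Fgf2 in untreated cells, and the part of genomic DNA in those wells was not tested.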

How the results depend on the processing

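No paired analysis was possible because there was 1 sample per group, and no replicate could be left out. Over 20 results and 15 settings, 120 of 177 recomputed values stayed within 1 SD of a difference between single wells or, for counts, within 1.5 times. This covers all values with B2m, Gusb or Hsp90ab1 alone, with the deposited delta Ct, with other limits and with shifts of 0.5 cycle. The last is so by construction, since 0.5 is less than that SD, and under these shifts Bmp4 crossed the limit (-0.66) and Fgf1 changed sign (0.21). With the limits at 1.5 and its inverse, 4 ligands were below. The references below shift every gene by a constant, by construction.

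Against Gapdh alone, 0 ligands were below 0.5 and 5 above 1.5, the latter including Fgf10, whose direction against a gene at the ceiling is unknown. The log2 fold changes turned to 3.72 for Shh, 5.37 for Bmp4 and 4.47 for Fgf2, with medians of 4.47 for the ligands and 5.88 for FGF, and 0 genes of each of the 4 lists were below 0.5. Against the mean of all 5 reference genes, 1 ligand was below and 2 above with values as they stand, all of them lower limits and Fgf10 of unknown direction, Shh was at -1.32, Bmp4 turned to 0.33, the median was 0.00 for the ligands and 0.84 for FGF (the value of Fgf10), and 2 growth factor, 2 brown fat and 3 secreted genes were below. Against the median gene, 1 was below and 2 above, of which Fgf10 at 0.85 is an upper bound and only Fgf1 is known to be above, Shh was at -1.31, Bmp4 turned to 0.34, the medians were 0.00 and 0.85, and the list counts were again 2, 2 and 3. Against Actb, which also gives lower limits, 1 ligand was above, Shh was at -1.87 and the medians were 0.00 and 0.29.

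Setting Ct above 32 to 32 left 3 brown fat and 3 secreted genes below, and gave control gaps of 0.30 cycles for BMP minus FGF and 6.82 for BMP minus Shh. Leaving out members at 35 gave medians of -1.61 for the ligands and -1.16 for BMP, changes of 0.015 for BMP minus FGF and 1.65 for BMP minus Shh, and control gaps of 0.015 cycles for BMP minus FGF, 5.65 for BMP minus Shh and 5.64 for FGF minus Shh. The ceiling limits 3 of the 7 ligands.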
